A study of Ictalurus punctatus x Ictalurus furcatus and Ictalurus furcatus and Ictalurus punctatus with 8 samples.

Results

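The genes described here are the cystatin-like gene ENSIPUG00000002512 and the boophilin-H2-like gene ENSIPUG00000021723, 2 of the 13444 genes measured in the livers of reciprocal F1 hybrids of channel and blue catfish and of both parental species. They were taken by identifier, and had been selected on their measured values as being among the largest changes of earlier comparisons of these livers. The cystatin-like gene was chosen by its level in channel catfish against each of the other 3 types, and the boophilin-H2-like gene by its level in F1BC hybrids against channel catfish. Those differences are given as a description with no test, and the tests cover the remaining ones. A tested difference that shares libraries with one that chose the gene is not independent of that choice, so its p-value is descriptive.

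The 4 genetic types were the F1CB hybrid (channel catfish female crossed with blue catfish male), the F1BC hybrid (blue catfish female crossed with channel catfish male), the channel catfish parental cross (PC) and the blue catfish parental cross (PB). Each type gave 2 livers, from different fish that were 12 months old and had received no treatment named in the sources used here. The fish were kept indoors, each type in a tank of its own with 100 fish, so genetic type and tank cannot be told apart. Levels are the deposited values, read here as CPM, the reads of a gene scaled to a common total per library. Not all of them are plain shares of reads, as given below. All reads, those of blue catfish included, were mapped to the channel catfish genome, so reads of blue catfish alleles may map less well. The part of such mapping in each difference between types was not tested.

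Cystatins inhibit papain-like cysteine proteases, the family of the lysosomal cathepsins, by blocking their active-site cleft. The superfamily includes small secreted cystatins, the intracellular stefins such as cystatin B, and larger plasma proteins made by the liver that carry cystatin domains, the fetuins and kininogens. The Kunitz domain is a small fold held by disulfide bonds that inhibits serine proteases such as trypsin, plasmin and the clotting proteases. Boophilin itself was described in a cattle tick, where it inhibits thrombin, so the name of the catfish gene rests on similarity and its role in catfish is not given by the files. No sequence or position of either gene is shown, since no genome or protein table was used here.

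The deposited values of each library summed to between 996838 and 998652 CPM, a total set by the scaling that says nothing of sequencing depth. Across genes, the 2 livers of each type had a Spearman correlation of 0.929 in F1CB, 0.941 in F1BC, 0.876 in PC and 0.906 in PB. The liver label was checked on 13 hepatocyte markers, which summed to between 67633 and 116079 CPM, with no marker at 0. Markers of exocrine pancreas (8 genes) summed to between 239 and 3858 CPM, and those of red blood cells (8 genes) to between 1317 and 10758 CPM. Those of leukocytes (8 genes) summed to between 293 and 1473 CPM. The lowest value of a single marker was 0.224 CPM for pancreas, 0.235 CPM for red blood cells and 0.00804 CPM for leukocytes. Not every marker need therefore have been detected in every liver. In tissue RNA, fewer cells of a type and less RNA per cell cannot be told apart.

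The cystatin-like gene was abundant in both hybrids and in blue catfish and close to 1 CPM in channel catfish. It had 124 and 129 CPM in the F1CB livers, 320 and 252 CPM in the F1BC livers, 1.65 and 1.33 CPM in the PC livers, and 310 and 365 CPM in the PB livers. The PC livers stood far below the other 6, the F1CB livers lay between them and the rest, and the F1BC and PB livers overlapped. The means were 126 ± 4.02 CPM in F1CB, 286 ± 47.7 CPM in F1BC, 1.49 ± 0.224 CPM in PC and 338 ± 39.1 CPM in PB (SD, n = 2 each). In order of level, PB and F1BC were neighbours that did not differ beyond their spread, F1CB came next and PC last. Among all genes the level of this gene fell at percentile 94.0 in F1CB, 97.0 in F1BC, 11.9 in PC and 97.1 in PB.

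The boophilin-H2-like gene had the opposite parental order. It had 9.32 and 2.53 CPM in the F1CB livers, 0.0430 and 0.0154 CPM in the F1BC livers, 49.5 and 54.8 CPM in the PC livers, and 0.308 and 0.181 CPM in the PB livers. The groups did not overlap, and the F1CB livers differed from each other more than the livers of PC did. The means were 5.93 ± 4.8 CPM in F1CB, 0.0292 ± 0.0196 CPM in F1BC, 52.2 ± 3.8 CPM in PC and 0.244 ± 0.0902 CPM in PB (SD, n = 2 each). The order was PC, F1CB, PB and F1BC, but PB and F1BC were both near zero and the test given below cannot decide their difference. Its percentile among all genes was 46.0 in F1CB, 0.0298 in F1BC, 86.1 in PC and 1.44 in PB.

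**Figure D1:**
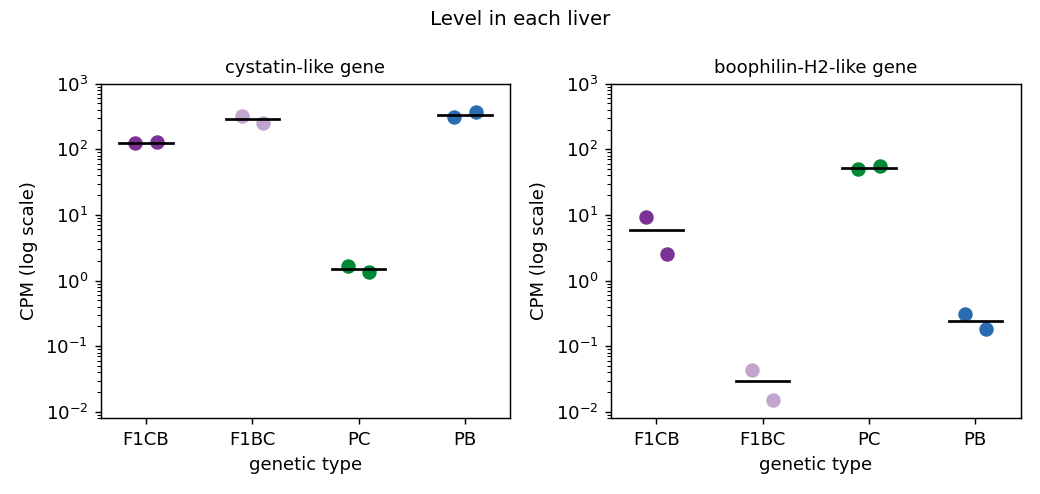
CPM of the cystatin-like gene (left) and the boophilin-H2-like gene (right) in each liver, on a log axis, with points for the 2 livers of each genetic type and a line at their mean. The PC livers are lowest for the cystatin-like gene, at 1.65 and 1.33 CPM, and highest for the boophilin-H2-like gene, at 49.5 and 54.8 CPM.

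The number of reads behind these values could be recovered in 1 library. In PC replicate 1, 100% of 971 low values were whole multiples of 0.028 CPM, to within 0.05 of a multiple, so that 1 read was worth 0.028 CPM there, the cystatin-like gene had about 59 reads and the boophilin-H2-like gene about 1766 reads. No such step was found in the other 7 libraries, so their depth is unknown. Not every deposited value is a plain share of reads, since the gene ENSIPUG00000000316 had 1.54e-18 CPM in both PC livers. The F1BC values of the boophilin-H2-like gene, 0.0430 and 0.0154 CPM, lie on either side of what 1 read was worth in PC replicate 1. They may not stand for whole reads, and the size of any fold against F1BC depends on the pseudocount. Both genes passed the low-value filter (type mean above 1 CPM somewhere), the cystatin-like gene with all 8 livers above 1 CPM, and the boophilin-H2-like gene through PC and F1CB, with 4 of 8 livers above 1 CPM.

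Differences were taken on log2(CPM + 0.5), a scale that understates the change of a low gene, in 1 limma fit of all 8 libraries and 13420 genes, with two-sided p-values adjusted over all these genes by the Benjamini-Hochberg method. A gene was called when its adjusted p was under 0.05 and its log2 difference over 1.5 in size. With 2 livers against 2, an exact permutation test of a single gene cannot go below p = 0.333, so the limma values rest on a spread shared across genes and types.

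For the cystatin-like gene, the differences that chose it were among the largest of their comparisons. The log2 difference was 6.0 for F1CB minus PC and 7.16 for F1BC minus PC (SE 0.37 each), which ranked 2 (F1CB) and 1 (F1BC) by size among all genes. PC minus PB was -7.41 (SE 0.37), rank 5. As ratios of mean CPM, the level was 84.7-fold higher in F1CB than in PC, 191-fold higher in F1BC than in PC, and 226-fold lower in PC than in PB.

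The tested differences of the cystatin-like gene, between the hybrids and between each hybrid and blue catfish, were small beside these. They share the hybrid and PB libraries, though not the PC libraries, with the differences that chose the gene. F1CB minus F1BC was -1.16 (95% interval -1.98 to -0.35), a mean 2.26-fold lower in F1CB, and was not called (adjusted p = 0.448, limma), in a comparison where 0.149% of all genes were called. F1CB minus PB was -1.41 (-2.22 to -0.60), a mean 2.67-fold lower in F1CB, and was not called either (adjusted p = 0.0933, with 1.42% of genes called). Both F1CB livers lay below all 4 livers of F1BC and PB. F1BC minus PB was -0.24 (-1.06 to 0.57; adjusted p = 0.741, with 2.28% of genes called), an interval that leaves room for a change of either sign, and after median-of-ratios scaling the value was 0.13.

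The boophilin-H2-like gene was chosen on F1BC minus PC, where its log2 difference was -6.64 (SE 0.59), rank 4 by size. PC minus PB, which shares the PC libraries with that difference, was 6.15 (95% interval 4.87 to 7.42; adjusted p = 7.7e-05, limma), a call in a comparison where 15.8% of all genes were called, 1224 of them higher in PC and 898 lower. The PC livers, at 49.5 and 54.8 CPM, did not approach the PB livers, at 0.308 and 0.181 CPM. The values without 1 library ran between 6.02 and 6.27, and all reuse PC livers on which the gene was chosen.

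F1CB carried the boophilin-H2-like transcript at an intermediate level. The limma fit gave all 4 types 1 shared spread for this gene (0.588 in log2). On that scale the F1CB livers, at 9.32 and 2.53 CPM, lay farther apart than those of any other type. Intervals of the differences with F1CB may therefore be too narrow, and those of the differences without F1CB too wide. F1CB minus PC, which shares the PC libraries with the difference that chose the gene, was -3.27 (-4.54 to -1.99; adjusted p = 0.0170), a mean 8.80-fold lower in F1CB, and was called, where 2.03% of all genes were. The call was lost without F1CB replicate 2 (-2.42, adjusted p = 0.187) and without PC replicate 1 (-3.34, adjusted p = 0.0766). F1CB minus PB compares no liver of the difference that chose the gene, but its spread still came from all 8 libraries, those livers included. In a fit of the compared types only, it was not called (2.88, adjusted p = 0.0617, limma). In the fit of all types it was 2.88 (1.60 to 4.16; adjusted p = 0.0322, limma), and was called as higher in F1CB. This call was lost without F1CB replicate 1 (2.03, adjusted p = 0.248), without either PB library (3.00, adjusted p = 0.0783 without replicate 1, and 2.76, adjusted p = 0.207 without replicate 2) and, narrowly, without F1BC replicate 1 (2.88, adjusted p = 0.0503).

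Between the reciprocal hybrids, the boophilin-H2-like gene was detected in both F1CB livers and was near zero in both F1BC livers. F1CB minus F1BC was 3.37 (2.09 to 4.64), rank 23 by size among all genes, and the adjusted p of 0.0506 just missed the threshold (unadjusted p = 8.3e-05). With a pseudocount of 0.1 the difference was 5.28 and passed (adjusted p = 0.0209, limma), and with 1 it was 2.55 and did not (adjusted p = 0.130). Of 17 alternatives, 15 left this difference uncalled. F1BC minus PB was -0.49 (-1.76 to 0.79; adjusted p = 0.666), so no difference between the 2 types with a blue catfish mother was detectable. Both of these differences share the F1BC libraries with the one that chose the gene.

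**Figure D2:**
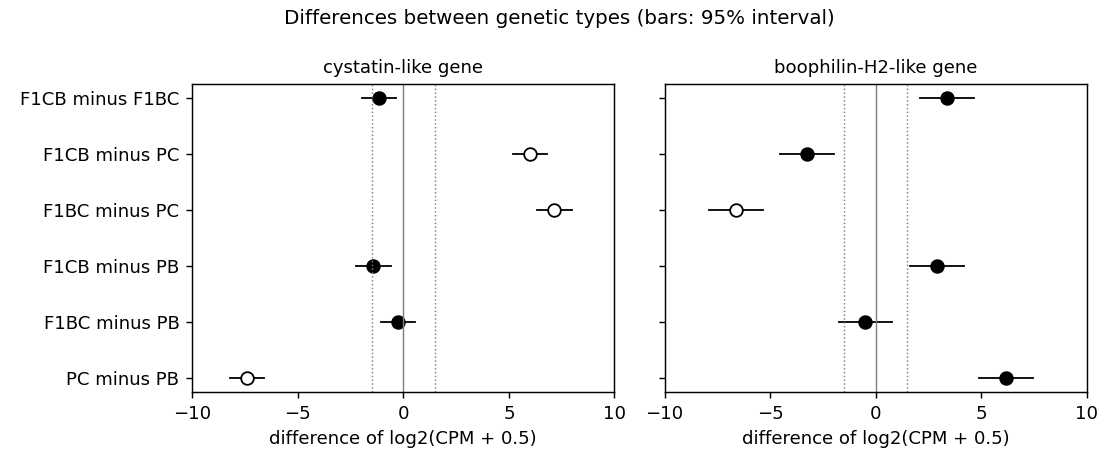
Difference of log2(CPM + 0.5) for the 6 comparisons of types, for the cystatin-like gene (left) and the boophilin-H2-like gene (right). Bars are 95% intervals from the limma fit, and dotted lines stand at 1.5 and -1.5. Open points mark the differences that chose the gene, so their intervals are no test and lack 95% coverage. For the cystatin-like gene the 3 differences that involve PC lie farthest from 0, at 6.0, 7.16 and -7.41, and for the boophilin-H2-like gene F1BC minus PC (-6.64) and PC minus PB (6.15) do.

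The hybrids were also placed between their parents in CPM. For the cystatin-like gene the mid-parent value was 169.5 CPM, F1CB was at 0.746 times and F1BC at 1.69 times that value, and the hybrids reached 37.5% (F1CB) and 84.7% (F1BC) of the PB level. On the log2 scale both hybrids lay above the mid-parent, by 2.3 in F1CB and 3.5 in F1BC (SE 0.32 each), so F1CB is below the mid-parent in CPM and above it in log2. For the boophilin-H2-like gene the mid-parent value was 26.2 CPM and F1CB was at 0.226 times that value, or 11.4% of the PC level. On the log2 scale F1CB was close to the mid-parent (-0.19, SE 0.51) and F1BC was well below it (-3.56, SE 0.51).

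The study called a hybrid transgressive when its level was over 1.2 times that of both parents, or under 0.8 times that of both. By this rule, applied to mean CPM, the boophilin-H2-like gene in F1BC was transgressive, at 12% of the lower parent PB. That classification compares 0.0292 CPM in F1BC with 0.244 CPM in PB, and the difference from PB did not pass the limma test. Neither the boophilin-H2-like gene in F1CB nor the cystatin-like gene in either hybrid met the rule.

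For both genes the hybrid nearer to a parent was the one that had that species as its mother. The difference between the hybrids was called for neither the cystatin-like gene (adjusted p = 0.448, limma) nor the boophilin-H2-like gene (adjusted p = 0.0506, limma). The cystatin-like gene ranged from 1.33 to 129 CPM over the 4 livers with a channel catfish mother (F1CB and PC) and from 252 to 365 CPM over the 4 livers with a blue catfish mother (F1BC and PB). All genes together held 268 of 13420 (2.0%) with this separation, every blue-mother liver above every channel-mother liver. The boophilin-H2-like gene ranged from 2.53 to 54.8 CPM with a channel catfish mother and from 0.0154 to 0.308 CPM with a blue catfish mother, a separation in the other direction that 499 genes (3.72%) showed. Since the separations include the PC livers on which the genes were chosen, they are a description.

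**Figure D3:**
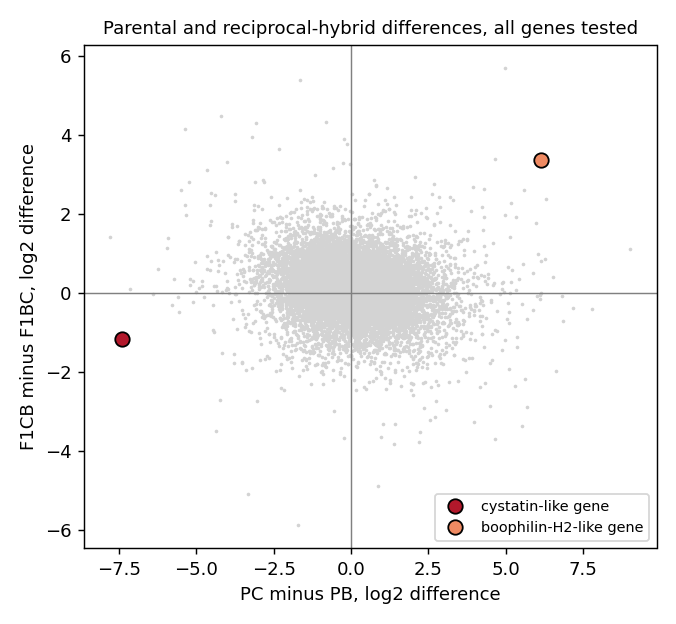
Log2 difference PC minus PB (horizontal) and F1CB minus F1BC (vertical) for all 13420 genes tested, 2 comparisons that share no libraries, with the cystatin-like gene and the boophilin-H2-like gene marked. The cystatin-like gene lies at -7.41 and -1.16, the boophilin-H2-like gene at 6.15 and 3.37.

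Set against the rest of its superfamily, the cystatin-like gene was of middling level except in PC, where it was the lowest. Compared per length, as mean CPM per kb of transcript, it stood at 45.5 in F1CB, 103 in F1BC, 0.537 in PC and 121 in PB, and ranked 9, 7, 14 and 8 of the 14 cystatin genes in these types in the same order. The lowest of the other 13 was 2.23 CPM per kb in PC. The most abundant were ahsg2 (alpha-2-HS-glycoprotein, the fetuin-A gene), with 3332 CPM per kb in F1CB, 6351 in F1BC, 3197 in PC and 2345 in PB, and another cystatin-like gene, ENSIPUG00000002517, with 2952 CPM per kb in PC and 1880 in PB. ENSIPUG00000002517 thus stayed high in the channel catfish livers, where ENSIPUG00000002512 was low but detected (1.65 and 1.33 CPM). The PC minus PB log2 difference of ENSIPUG00000002517, 0.63, was not called (adjusted p = 0.257, limma). How reads that fit more than 1 gene were counted is not given. No sequences were compared, so whether these genes share reads is unknown and any split between them is uncertain.

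Of these 13 other cystatin genes, 0 were called higher and 2 lower in PC than in PB, against 15.8% of all genes called in either direction, and their median log2 difference was -0.52, against 0.02 over all genes. Both called genes were fetuin-B-like, and fetuin-B is known in mammals as an inhibitor of a metalloprotease of the egg rather than of cathepsins. ENSIPUG00000002515 had 87.2 and 115 CPM in the PC livers, against 394 and 888 CPM in the PB livers, which did not overlap (log2 -2.56, adjusted p = 0.00298). It was also lower in F1BC, at 67.5 and 78.4 CPM, than in PB (log2 -3.01, adjusted p = 0.00444), and had 206 and 129 CPM in F1CB. ENSIPUG00000002538 had 275 and 1423 CPM in the PC livers, against 3033 and 3057 CPM in the PB livers (log2 -2.28, adjusted p = 0.0198), and this call was lost without PC replicate 1 (-1.10, adjusted p = 0.0711) or either PB library (adjusted p = 0.0802 and 0.0991).

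The other 11 cystatin genes passed the test in neither direction in PC minus PB. Kininogen 1, the precursor of bradykinin, had a log2 difference of 0.26, and cyt, a cystatin, had -0.79 (adjusted p = 0.139). The cystatin-B-like genes, of the intracellular stefin type, were at -0.52 (ENSIPUG00000011153) and -0.64 (ENSIPUG00000011182). The cystatin-like genes ENSIPUG00000018947, ENSIPUG00000018959 and ENSIPUG00000024895 were at -1.07 (adjusted p = 0.0796), -0.76 and 0.78, and ENSIPUG00000020064 at 0.71. The remaining values were 0.68 for the fetuin-B-like gene ENSIPUG00000002525 and 0.39 for ahsg2.

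Among the Kunitz genes the boophilin-H2-like gene was one of the more abundant in PC and the least abundant in F1BC and PB. Per length it stood at 4.49 CPM per kb in F1CB, 0.0221 in F1BC, 39.5 in PC and 0.185 in PB, and so ranked 4, 10, 3 and 10 of 10 in the same order. The most abundant Kunitz gene was ambp, the precursor of bikunin, a plasma inhibitor made by hepatocytes, with 1692 CPM per kb in F1CB, 1846 in F1BC, 1408 in PC and 1754 in PB. Next to the boophilin-H2-like gene in PC was aplp2, an amyloid precursor-like protein, with 40.1 CPM per kb.

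None of the other 9 Kunitz genes was called in PC minus PB by limma (0 of 9, with 1 at an unadjusted p under 0.05, against 15.8% of all genes called), and their median log2 difference was 0.51. The one with the largest difference was spint1a, a membrane-bound inhibitor of the serine proteases that activate growth factors, with 5.57 and 14.4 CPM in the PC livers, against 2.94 and 3.33 CPM in the PB livers (log2 1.39, adjusted p = 0.0950). The genes named as tissue factor pathway inhibitors, tfpia and tfpi2, were at 0.86 and 0.87, and spint2, a relative of spint1a, at 0.78. The values were -0.33 for ambp, -0.62 for aplp2, 0.32 for appb, 0.51 for spint1b and 0.27 for paplna, a papilin of the extracellular matrix. The same 9 genes were not called in F1CB minus PC or F1CB minus PB either, the comparisons in which the boophilin-H2-like gene was called (0 of 9 each, also 0 at an unadjusted p under 0.05). With 2.03% and 1.42% of all genes called there, these counts are near the background.

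**Figure D4:**
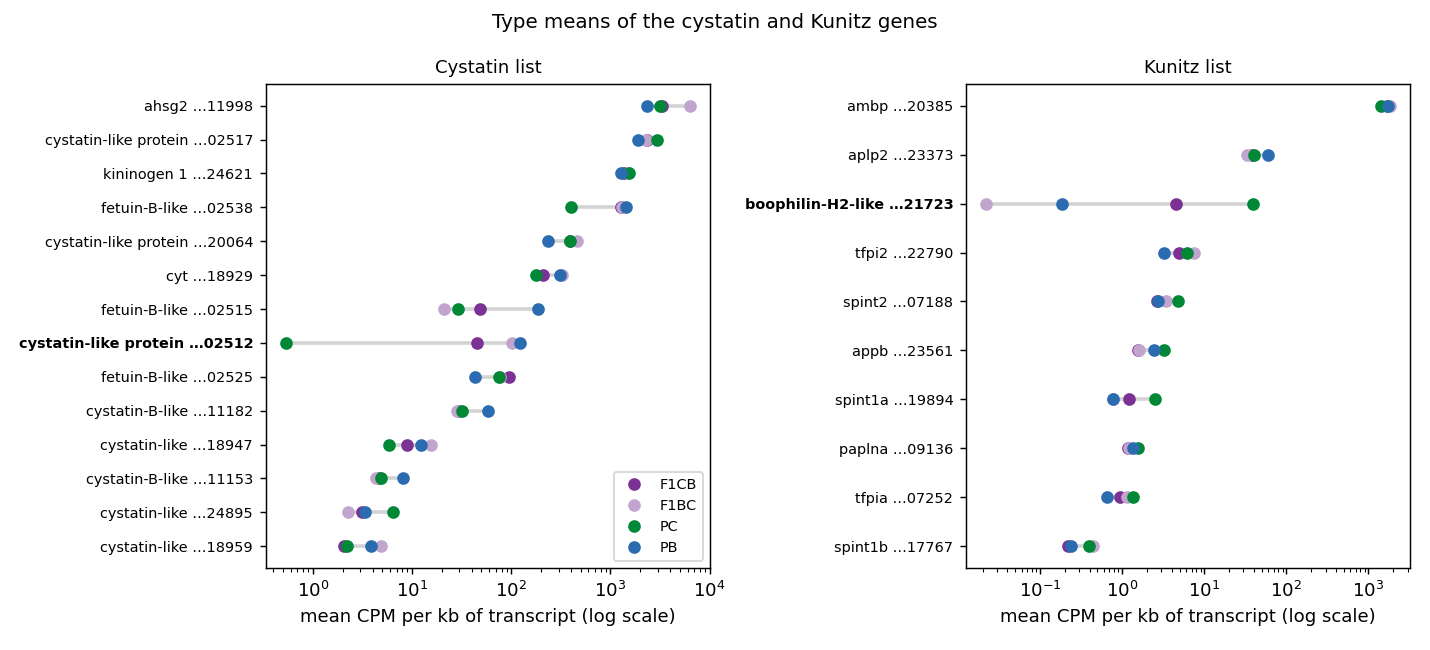
Mean CPM per kb of transcript on a log axis for the 14 cystatin genes (left) and the 10 Kunitz genes (right), with a point for each genetic type and the last 5 digits of each gene identifier beside its name. The cystatin-like gene runs from 0.537 in PC to 121 in PB, and the boophilin-H2-like gene from 0.0221 in F1BC to 39.5 in PC, the widest spans of their lists.

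Proteases of the kinds that cystatins and Kunitz inhibitors act on, and the other large inhibitor families of plasma, were read in PC minus PB. Whether either member inhibits any of these proteases was not tested. None of the 15 cysteine proteases (cathepsins and legumain) was called (0 of 15 by limma, with 2 at an unadjusted p under 0.05; median -0.33). Over all 6 lists, the cystatin and Kunitz lists included and the members set aside, 9 of 72 genes (12.5%) were called, near the background of 15.8%. Without PB replicate 1 the number was 5. In F1CB minus F1BC, 0 of the 72 were called by limma, with 6 at an unadjusted p under 0.05, in a comparison where 0.149% of all genes were called.

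Of 13 clotting and fibrinolytic proteases, 2 were called higher and 1 lower in PC than in PB, against 15.8% of all genes called. Their median was -0.71, against 0.02 over all genes. PROC, the precursor of the anticoagulant protease protein C, had 89.0 and 89.2 CPM in the PC livers, against 35.5 and 20.8 CPM in the PB livers (log2 1.69, adjusted p = 0.0132), a call lost without PB replicate 2 (1.31, adjusted p = 0.0965) and in a fit of PC and PB alone (adjusted p = 0.0538). The coagulation factor IX genes went in opposite directions, f9a at 1.90 (adjusted p = 0.0183) and f9b at -1.93 (adjusted p = 0.00716). The first was lost without PC replicate 1 (1.51, adjusted p = 0.101) or PB replicate 2 (1.29, adjusted p = 0.145) and in the fit of PC and PB alone (adjusted p = 0.0519), and the second without PB replicate 1 (-1.57, adjusted p = 0.0533). Reads of such related copies may be split between them, which makes each value uncertain.

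Of 17 serpins, which trap serine proteases, 0 were called higher and 2 lower in PC than in PB, against 15.8% of all genes called. Their median was -0.33, against 0.02 over all genes. An alpha-1-antitrypsin homolog, ENSIPUG00000012784, whose mammalian counterpart inhibits neutrophil elastase, had 0.140 and 1.39 CPM in the PC livers, against 26.8 and 59.8 CPM in the PB livers (log2 -5.20, adjusted p = 0.000182). It had 12.6 and 14.2 CPM in the F1CB livers and 9.96 and 13.2 CPM in the F1BC livers, so that, like the cystatin-like gene, its level was lowest in PC. The other was serpinf1, a serpin that inhibits no protease in mammals, at -2.10 (adjusted p = 0.0121), a call lost without PB replicate 1 (-1.78, adjusted p = 0.0731).

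Of 5 genes of the alpha-2-macroglobulin family, broad protease traps of plasma, 2 were called higher and 0 lower in PC than in PB. Over all genes 15.8% were called. The family median was 1.13, against 0.02 over all genes. ENSIPUG00000010578 had 3934 and 1531 CPM in the PC livers, against 381 and 539 CPM in the PB livers (log2 2.44, adjusted p = 0.00383). ENSIPUG00000009713 had 6723 and 2577 CPM in the PC livers, against 778 and 1365 CPM in the PB livers (log2 2.01, adjusted p = 0.0126), and its call was lost without PC replicate 1 (1.32, adjusted p = 0.0666) or PB replicate 1 (1.61, adjusted p = 0.0856). In both genes PC replicate 1 stood well above PC replicate 2.

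The genes whose levels followed the members most closely were sought among 563 genes whose type means spanned at least 3 log2 units, by Pearson's r over the 8 libraries. For the cystatin-like gene they were nxpe3 (r = 0.98), ENSIPUG00000000316, which carries no name (r = 0.98), and noxo1b, an organizer of NADPH oxidase (r = 0.97). nxpe3 had 15.7 and 13.4 CPM in F1CB, 17.7 and 13.7 CPM in F1BC, 0.196 and 0.768 CPM in PC and 24.7 and 25.3 CPM in PB. In nxpe3 the hybrids overlapped, unlike in the cystatin-like gene.

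For the boophilin-H2-like gene they were TENM3, a teneurin of cell adhesion (r = 0.97), rabp1, a retinoic acid-binding protein (r = 0.95), and emid1, with an EMI domain (r = 0.94). TENM3 had 6.76 and 7.07 CPM in F1CB, 1.12 and 1.52 CPM in F1BC, 20.5 and 16.5 CPM in PC and 3.06 and 1.60 CPM in PB. TENM3 was picked for its likeness over these same livers, so its higher level with a channel catfish mother is no separate finding. These correlations rest on 8 libraries in 4 types and are descriptive.

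The marker sums were read beside the members in each liver. The exocrine pancreas markers summed to 1122 and 239 CPM in the F1BC livers and to 250 and 3612 CPM in the PC livers. They summed to 1410 and 2986 CPM in the PB livers. In PC the cystatin-like gene had 1.65 and 1.33 CPM and the boophilin-H2-like gene 49.5 and 54.8 CPM. In F1CB the pancreas markers summed to 610 and 3858 CPM, where the boophilin-H2-like gene had 9.32 and 2.53 CPM. The leukocyte markers summed to 422 and 293 CPM in F1CB, 700 and 1059 CPM in F1BC, 757 and 1314 CPM in PC and 728 and 1473 CPM in PB. They were lowest in F1CB. The red blood cell markers summed to 1317 and 2308 CPM in F1CB, 3196 and 2132 CPM in F1BC, 2867 and 6121 CPM in PC and 2495 and 10758 CPM in PB, with both F1CB livers below the PC and PB livers. The hepatocyte markers summed to 105027 and 91798 CPM in F1CB, 93240 and 116079 CPM in F1BC, 67633 and 71917 CPM in PC and 75867 and 91114 CPM in PB. They were lowest in PC, as was the cystatin-like gene, whose mean was 226-fold lower in PC than in PB. The part of any of these cell types in the differences of either member was not tested.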

How the data were processed

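Liver RNA of 8 catfish, 2 for each of 4 genetic types, was sequenced as paired ends by the study. The authors trimmed the reads with Trimmomatic, aligned these to the genome of channel catfish with TopHat2 (version 2.1.1), counted them on gene models with BedTools (version 2.29.0) and scaled them with edgeR, per the submitters' processing notes and the methods. The genome build and the strand setting of the counting are not given in the sources used here, so overlapping genes are uncertain. The deposited values are named RPKM by the authors but behave as CPM: libraries sum to 996838 to 998652, and the log2 means match the deposited log2 CPM column (median difference -0.01) unless divided by length (-1.68). That log2 CPM column, the authors' mean over libraries, served only for this check. Columns of the authors' fold changes and p-values were not used.

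Values were tested as log2(CPM + 0.5) with limma (version 3.58.1, R version 4.3.3, trended prior variance), keeping genes whose mean exceeded 1 CPM for some type (13420 of 13444 genes), on 1 fit of all types without a block. The code was tested on simulated data. Whole reads could be recovered in 1 of 8 libraries, so no count test was run and depth is otherwise unknown. The members and the gene lists were chosen with earlier results of these data known, and the list patterns were tightened after a first look to drop false name matches. The text names both members, the 3 genes most like each, all genes of the cystatin and Kunitz lists, and of the other lists those called in PC minus PB, at most 4 per direction. The alternatives were other pseudocounts (0.1 and 1), a filter of 5 CPM or none, median-of-ratios scaling, quantile normalization, no variance trend, a fit of the compared types only, a mid-parent taken in CPM, a replicate block and leaving out each library.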

Additional observations from a re-analysis of the deposited data

How the results depend on the processing

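With 2 livers per type, a single library can decide a call, depth is unknown in 7 of 8 libraries, and low values depend on the pseudocount. The all-gene median log2 difference as deposited was 0.15 in F1CB minus F1BC, -0.22 in F1CB minus PC and -0.37 in F1BC minus PC. It was -0.18 in F1CB minus PB, -0.35 in F1BC minus PB and 0.02 in PC minus PB. Median-of-ratios scaling brought these medians near 0. Under that scaling the cystatin-like gene in F1BC minus PB was 0.13 (adjusted p = 0.898) instead of -0.24. The cause of the other changes below was not tested.

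The boophilin-H2-like gene in F1CB minus F1BC passed the threshold with a pseudocount of 0.1 (5.28, adjusted p = 0.0209), and its adjusted p ranged from 0.0209 to 0.423. Its F1BC minus PC value was -8.67 with a pseudocount of 0.1 and -5.69 with 1. Its F1CB minus PB call was lost with a pseudocount of 1 (2.28, adjusted p = 0.0537) and in a fit of the compared types only (2.88, adjusted p = 0.0617), and the values without 1 library ran between 2.03 and 3.73. Its F1CB minus PC values without 1 library ran between -4.12 and -2.42. With the mid-parent taken in CPM before the log2, the hybrids stood from it at -0.42 (F1CB) and 0.75 (F1BC) for the cystatin-like gene, and at -2.05 (F1CB) and -5.66 (F1BC) for the boophilin-H2-like gene. With a pseudocount of 0.1 the boophilin-H2-like values were 0.25 (F1CB) and -5.03 (F1BC), and without F1CB replicate 1 or 2 the F1CB value was -1.04 or 0.65. The number of list genes called in PC minus PB ran between 5 and 11 without 1 library, against 9.

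The replicate numbers did not pair the livers: the correlation of same-numbered deviations lay between -0.01 and 0.14 over the 6 pairs of types. With a replicate block the boophilin-H2-like gene in F1CB minus F1BC passed the threshold (3.37, adjusted p = 0.0232, limma). The number of genes called with the block was 711 against 273 in F1CB minus PC and 322 against 108 in F1BC minus PC. It was 354 against 191 in F1CB minus PB and 612 against 306 in F1BC minus PB. Over the alternatives the number of genes called ran from 3 to 39 in F1CB minus F1BC, 29 to 1104 in F1CB minus PC, 44 to 354 in F1CB minus PB, 63 to 612 in F1BC minus PB and 928 to 2568 in PC minus PB. Of 548 alternative values in all, 474 were labelled the same. For tested differences this meant the same direction and side of the threshold, for untested ones a shift within the spread. For counts of called genes it meant a count within a set fold of the main one. Many of these values could not move, since leaving out a library of a type not compared, for example, returns the same log2 difference. The total is therefore no measure of robustness.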
